A study of Mus musculus with 3 samples.

Results

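The genes described here form the switch between a germinal centre B cell and a plasma cell: Prdm1, Bcl6, Bach2, Bach1, Xbp1, Ell2 and Mitf. They were chosen by name, as 7 of 37646 genes in the deposited tables, and all 7 were listed in every table. RNA came from B220+GFP+ splenic lymphoma B cells of C57BL/6 mice of the pBIC2 model, which carries p53F/F, Blimp1F/F, IKK2castopF/stopF, Cg1Cre/+ and Eµ-hBCL2tg/+. Every library shares these alleles, so floxed Trp53 and Prdm1, the IKK2 allele that Cre switches on, Cre at the Cγ1 locus and the human BCL2 transgene under the Eµ enhancer are present throughout. Cre at the Cγ1 locus acts in activated B cells, and the sort on GFP took reporter-positive cells. The spleens came from moribund or control mice per the labels, no age is given, and nothing in the labels states that each library is a separate mouse. The 3 libraries, named tumours 1, 2 and 3, form 1 group without a control library, so every value is a level or a difference between single libraries, with no test.

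Blimp1, the protein of Prdm1, is a zinc finger repressor that ends the B cell program and allows plasma cell differentiation. BCL6 holds cells in the germinal centre state and represses Prdm1, and BACH2, a partner of small MAF proteins, does so as well, while BACH1 is its close relative and a haem sensor. XBP1 and ELL2 act on the other side of the switch: XBP1 expands the secretory pathway after its mRNA is spliced by the IRE1 kinase, and ELL2 is an elongation factor that favours the secreted form of immunoglobulin heavy chain mRNA. MITF, known from melanocytes and mast cells, restrains plasma cell differentiation in resting B cells.

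The libraries held 15576975, 16477997 and 17014022 gene counts. Each of 8 pan B cell markers reached 10 CPM in all 3 libraries (CPM are counts per 1000000 library counts, with library sizes normalised by TMM, which rests on the bulk of the genes). They summed to 6463, 10259 and 8410 CPM in tumours 1, 2 and 3, with 5 of 8 highest in tumour 2. Markers of other cells were unequal: 12 T cell markers summed to 261, 291 and 1680 CPM in tumours 1, 2 and 3, with 11 of 12 highest in tumour 3 and Cd3e at 0 in tumour 1. The 10 macrophage markers summed to 35.9, 406 and 180 CPM, with 9 of 10 highest in tumour 2, and the 7 neutrophil markers to 0.199, 16.6 and 41.1 CPM, with 6 of them at 0 in tumour 1. The 6 NK cell markers summed to 1.86, 2.45 and 48.3 CPM and the 5 erythroid markers to 7.09, 16.98 and 9.07 CPM. In a bulk sample, fewer cells of a type and less RNA per cell cannot be told apart.

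Prdm1 RNA was detected in all 3 lymphomas at a low level that differed little between them. Prdm1 (ENSMUSG00000038151.13, chr10:44437177-44528501, mm10, minus strand, GENCODE M21 coordinates) had 107, 169 and 137 counts in tumours 1, 2 and 3. These correspond to 7.09 CPM (exact 95% Poisson interval 5.81 to 8.57), 10.4 CPM (8.86 to 12.0) and 7.72 CPM (6.48 to 9.13), with a mean of 8.39 ± 1.73 CPM (SD, n = 3). Tumour 2 was the highest, 1.46-fold above tumour 1 (interval of the ratio 1.14 to 1.88) and 1.34-fold above tumour 3 (1.06 to 1.69), and tumours 1 and 3 had a ratio of 1.09 (0.839 to 1.42). All intervals cover counting error only, since these reads carry no molecular identifiers and need not be separate molecules. Because Prdm1 is floxed, its count was examined first, but it checks nothing: a gene count adds deleted and remaining exons, and which exons are floxed is not given in the sources used here. The summed pan B cell, macrophage and erythroid markers had the same order of tumours as Prdm1. The part of macrophage and erythroid RNA in the Prdm1 level was not tested. No other gene overlaps Prdm1 in the annotation.

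**Figure D1:**
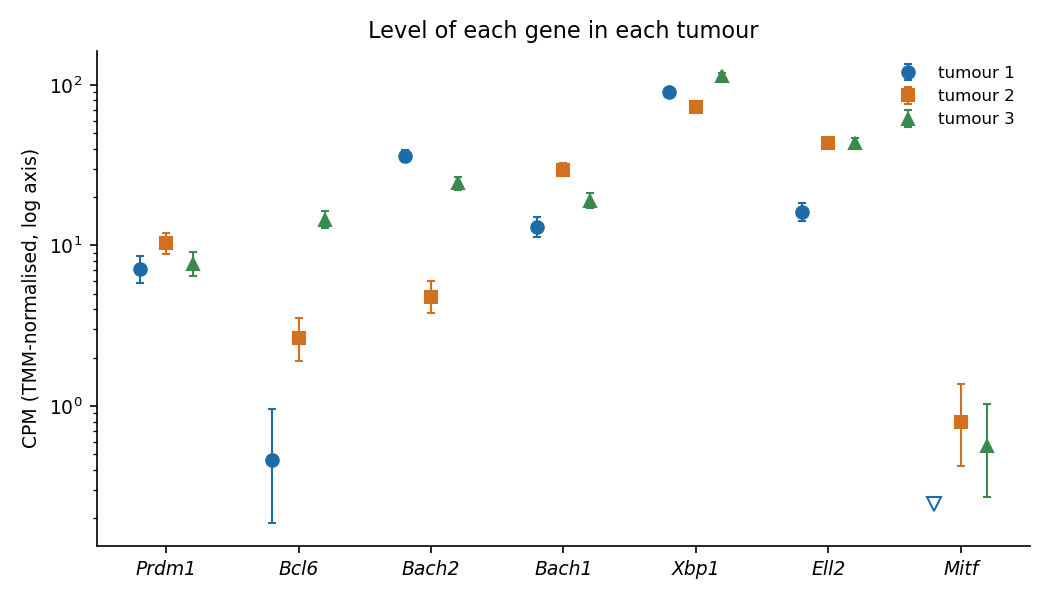
Level of the 7 switch genes in each lymphoma, in TMM-normalised CPM on a log axis; points are single libraries and bars are exact 95% Poisson intervals of the count, with an open triangle at the upper limit of 0.244 CPM for Mitf in tumour 1, which had no count. Prdm1 and Xbp1 range over 1.46-fold and 1.54-fold, while Bcl6 and Bach2 spread over 31.2-fold and 7.55-fold.

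Among switch genes with a count in every lymphoma, Bcl6 differed most between them. Bcl6 (ENSMUSG00000022508.5, chr16:23965052-23988852, minus strand) had 7 counts in tumour 1, 43 in tumour 2 and 257 in tumour 3. In CPM these were 0.464 (0.187 to 0.956), 2.64 (1.91 to 3.55) and 14.5 (12.8 to 16.4), with a mean of 5.86 ± 7.55 CPM (SD, n = 3). None of the 3 intervals overlapped, and tumour 3 was 31.2-fold above tumour 1 (14.9 to 78.4) and 5.49-fold above tumour 2 (3.97 to 7.78). Without tumour 3 the mean was 1.55 CPM, and tumour 2 was still 5.68-fold above tumour 1 (2.53 to 15). The 1 annotated gene that overlaps Bcl6, the short Gm37419 on the opposite strand, had at most 1 count.

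Of the 12 T cell markers, 9 had the order of Bcl6, lowest in tumour 1 and highest in tumour 3. The share of all genes with this order was not computed, so the order cannot be called particular to these markers. Bcl6 is also a factor of follicular helper T cells. Cd3g was at 2.39, 10.7 and 56.4 CPM and Cd8a at 0.663, 4.54 and 238 CPM. The 3 exceptions were Lck, a T cell kinase (68.7, 23.5 and 199.9 CPM), Tcf7, a T cell factor (146, 11.4 and 200.1 CPM), and Cd4, which was highest in tumour 2 (0.596, 5.82 and 0.902 CPM). Of the 9 in the order of Bcl6, Cd3d ranged over 104-fold, Cd8b1 138-fold, Trbc2 202-fold, Thy1 219-fold and Cd8a 359-fold, against 31.2-fold for Bcl6. Cd3g (23.6-fold), Trac (25.1-fold) and Cd2 (10.8-fold) ranged over less, and Cd3e had no count in tumour 1. The summed NK cell and neutrophil markers also had the order of Bcl6. Of the 6 NK cell markers, 4 had this order, and most of their sum in tumour 3 was Prf1 (0, 1.59 and 40.0 CPM). Klrb1c had 26, 1 and 0 counts and Ncr1 had no count. Of the 10 germinal centre genes, 5 passed the filter on low counts (10 counts at the median depth in every library), all 5 with a 2-fold range (34.1% of all filtered genes). While 5 of the 10 were highest in tumour 3, only 2 of the 10 had the full order of Bcl6. Among those highest in tumour 3 were Fas, a death receptor (0.133, 1.72 and 15.2 CPM) and S1pr2, a confinement receptor (1.66, 1.35 and 6.37 CPM). S1pr2 was lowest in tumour 2 and so lacked the order of Bcl6. Fas, S1pr2, Klrb1c and the T cell markers named here were chosen after their values were seen. Other germinal centre genes had another order: Mef2b, a transcriptional activator upstream of Bcl6, was highest in tumour 1 (157, 24.0 and 33.1 CPM), and Rgs13 in tumour 2 (0.0663, 90.1 and 2.99 CPM). Neil1, a DNA repair glycosylase, was at 84.97, 11.95 and 10.99 CPM, Plxnb2, a plexin receptor, at 201, 267 and 118 CPM, Gcsam had no count and Nuggc at most 2. The part of T cell, NK cell or neutrophil RNA in the Bcl6 level was not tested.

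RefSeq (GRCm38.p6) lists 2 start sites for Bcl6, and both windows, running from 250 bases before to 50 after the start, are shown. Bcl6 was picked as the member with the widest range among those with a count in every tumour. The letters of 6 motifs were searched on both strands of the 10 windows of the 7 genes: TTCCNNGAA for BCL6, AGNGAAAG for Blimp1, TGACGTG for XBP1, TCACGTG for MITF, the MAF recognition element bound by BACH with small MAF, and the NF-κB site. Capitals mark matches.

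Bcl6 downstream start, chr16:23981234-23981533, minus strand: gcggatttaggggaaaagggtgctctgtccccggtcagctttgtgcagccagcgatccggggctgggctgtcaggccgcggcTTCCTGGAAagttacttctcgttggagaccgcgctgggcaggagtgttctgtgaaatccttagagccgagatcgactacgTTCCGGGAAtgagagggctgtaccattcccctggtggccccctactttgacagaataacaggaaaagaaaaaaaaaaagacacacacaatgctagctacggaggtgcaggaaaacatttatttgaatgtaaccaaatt

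Bcl6 upstream start, chr16:23988803-23989102, minus strand: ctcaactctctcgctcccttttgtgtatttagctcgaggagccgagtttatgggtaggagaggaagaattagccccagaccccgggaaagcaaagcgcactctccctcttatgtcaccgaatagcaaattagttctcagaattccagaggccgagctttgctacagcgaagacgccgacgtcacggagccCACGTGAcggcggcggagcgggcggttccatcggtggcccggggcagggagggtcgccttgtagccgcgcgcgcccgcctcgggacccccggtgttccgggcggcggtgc

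The downstream window of Bcl6 held the BCL6 letters at 2 places, bases 83 to 91 and 163 to 171 counted from its 5′ end. At least 1 such match occurred in 4.81% of 32851 promoter windows of the same length, and 2 or more in 0.192%. These letters also fit the palindrome bound by STAT factors, so a match does not name the factor. The upstream window held the MITF letters at bases 191 to 197, found in 3.77% of windows. The matches describe letters and are not measured binding sites. The motifs were chosen after the windows were seen, so these shares do not test the matches.

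Bach2 was low in 1 lymphoma only. Bach2 (ENSMUSG00000040270.16, chr4:32238804-32586108, plus strand) had 545, 78 and 434 counts. Its levels were 36.1 CPM in tumour 1 (33.2 to 39.3), 4.78 CPM in tumour 2 (3.78 to 5.97) and 24.5 CPM in tumour 3 (22.2 to 26.9), with a mean of 21.8 ± 15.8 CPM (SD, n = 3). Tumour 1 was 7.55-fold above tumour 2 (5.95 to 9.70) and 1.48-fold above tumour 3 (1.30 to 1.68), and tumour 3 was 5.12-fold above tumour 2 (4.01 to 6.6). Of 11273 genes that passed the filter, 2.87% were at least 2-fold below both other libraries in tumour 2. That tumour was picked from the Bach2 values, so the share is no test. Without tumour 2, the SD of log2 CPM of Bach2 fell from 1.53 to 0.40. Bach2 holds a sense intronic and an antisense transcript, Bach2it1 and Bach2os, with at most 6 and 8 counts. The strand setting of the counting is not stated, so these counts do not limit how many such reads entered the Bach2 count.

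The single Bach2 start in the RefSeq table is shown because it holds the Blimp1 letters, on the opposite strand at bases 233 to 240, just before the start site; 8.63% of windows held them.

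Bach2, chr4:32417185-32417484, plus strand: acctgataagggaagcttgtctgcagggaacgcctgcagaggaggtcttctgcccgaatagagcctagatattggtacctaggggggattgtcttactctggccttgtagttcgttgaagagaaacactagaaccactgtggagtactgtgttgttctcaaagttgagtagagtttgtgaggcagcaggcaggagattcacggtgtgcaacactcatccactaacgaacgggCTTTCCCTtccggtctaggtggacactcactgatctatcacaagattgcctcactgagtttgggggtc

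The Prdm1, Bach1, Xbp1 and Ell2 windows held none of the 6 motifs, which says only that these letters are not in those 300 bases. Of the 3 Mitf windows, 1 held the Blimp1 letters.

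Bach1 had the opposite order to Bach2. Bach1 (ENSMUSG00000025612.5, chr16:87698945-87733346, plus strand) was at 13.0 CPM in tumour 1 (196 counts), 29.7 CPM in tumour 2 (484 counts) and 19.0 CPM in tumour 3 (337 counts), a mean of 20.6 ± 8.45 CPM (SD, n = 3). Tumour 2 was 2.28-fold above tumour 1 (1.93 to 2.71) and 1.56-fold above tumour 3 (1.36 to 1.8). Per kilobase of exon, Bach2 exceeded Bach1 1.73-fold in tumour 1, was 0.801 of it in tumour 3, and was 9.98-fold lower in tumour 2. The summed pan B cell, macrophage and erythroid markers had the same order of tumours as Bach1. The part of macrophage and erythroid RNA in the Bach1 level was not tested.

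Xbp1 was the most abundant of the 7 genes in every lymphoma and varied little. Xbp1 (ENSMUSG00000020484.19, chr11:5520659-5525893, plus strand) had 1358, 1195 and 2008 counts, or 90.0 CPM (85.3 to 94.9), 73.3 CPM (69.2 to 77.5) and 113 CPM (108 to 118), with a mean of 92.1 ± 20.0 CPM (SD, n = 3). Tumour 3 was 1.54-fold above tumour 2 (1.44 to 1.66) and 1.26-fold above tumour 1 (1.17 to 1.35), differences beyond counting error but within the range common between these libraries (median over all filtered genes 1.69-fold). The gene count holds both mRNA forms. The stretch that IRE1 removes was located in the GENCODE transcript Xbp1-201 from the paired CNGCAG loops at its ends, and is shown in capitals because reads over it, not counted here, would tell the forms apart.

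Xbp1-201, 86 bases around the site: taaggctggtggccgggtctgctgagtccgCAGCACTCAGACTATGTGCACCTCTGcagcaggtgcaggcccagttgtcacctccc

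The capitals are the 26 bases at positions 815 to 840 of the transcript. With them the reading frame has 267 codons, and without them 371, the form that encodes the active factor. An Xbp1 count therefore gives the amount of mRNA and not of active XBP1.

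Ell2 was low in tumour 1 and equal in the other libraries. Ell2 (ENSMUSG00000001542.7, chr13:75706757-75772364, plus strand) was at 16.1 CPM in tumour 1 (243 counts), 43.3 CPM in tumour 2 (707 counts) and 43.8 CPM in tumour 3 (777 counts), a mean of 34.4 ± 15.9 CPM (SD, n = 3). The ratio of tumour 3 to tumour 2 was 1.01 (0.911 to 1.12), and tumours 2 and 3 were 2.69-fold (2.32 to 3.13) and 2.72-fold (2.35 to 3.15) above tumour 1. Of the filtered genes, 5.41% were at least 2-fold below both others in tumour 1, a tumour picked from the Ell2 values. Macrophage (35.9, 406 and 180 CPM), neutrophil (0.199, 16.6 and 41.1 CPM) and T cell markers (261, 291 and 1680 CPM) were also lowest in tumour 1 by their sums. So were the pan B cell markers (6463, 10259 and 8410 CPM). The macrophage sum was mostly Cd68 (24.8, 325 and 162 CPM), and the T cell sums of tumours 1 and 2 were close. The part of macrophage, neutrophil or T cell RNA in the Ell2 level was not tested. The annotated transcripts that overlap Ell2 and were listed in the tables, 1700037F03Rik and Gm48302, had no count.

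Mitf was close to the detection limit. Mitf (ENSMUSG00000035158.15, chr6:97807052-98021349, plus strand) had 0, 13 and 10 counts. The upper limit in tumour 1 was 0.244 CPM (exact Poisson), and tumours 2 and 3 were at 0.797 CPM (0.424 to 1.36) and 0.564 CPM (0.270 to 1.04). Set against a floor of 3 counts in tumour 1 (0.199 CPM), the ratio was 4.01 for tumour 2 and 2.83 for tumour 3, while the exact 95% interval of the ratio reached down to 2.82-fold and 1.91-fold. Tumours 2 and 3 had a ratio of 1.41 with an interval from 0.573 to 3.6, so no difference between them was detectable at this depth. Of 6 mast cell markers, which could bring Mitf RNA, 5 had at most 9 counts in any tumour, with Cpa3 at 0 in tumours 1 and 2. The remaining marker, the histamine enzyme gene Hdc, was at 75.9, 7.11 and 3.33 CPM, highest where Mitf had no count. The summed pan B cell, macrophage and erythroid markers had the same order of tumours as Mitf. The part of macrophage and erythroid RNA in the Mitf level was not tested.

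Levels of different genes were compared per kilobase of merged exons. By the mean over tumours the order was Xbp1 (28.4 ± 6.17 CPM per kilobase, SD, n = 3), Ell2 (3.50 ± 1.61), Bach1 (3.33 ± 1.37), Bach2 (2.19 ± 1.59), Prdm1 (1.5 ± 0.311), Bcl6 (0.875 ± 1.13) and Mitf (0.0732 ± 0.0661). Xbp1 stood apart from all others, and Mitf was last in every tumour. Ell2, Bach1 and Bach2 did not differ beyond their spread, nor did Bach2, Prdm1 and Bcl6. Only Xbp1 lay above the median filtered gene (8.26 CPM per kilobase). Within a library, among genes with a count, Xbp1 was at percentile 89.9, 88.2 and 93.7 and Prdm1 at 48.1, 53.0 and 51.6 in tumours 1, 2 and 3. Bcl6 moved from percentile 12.0 to 34.3 and 56.5.

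**Figure D2:**
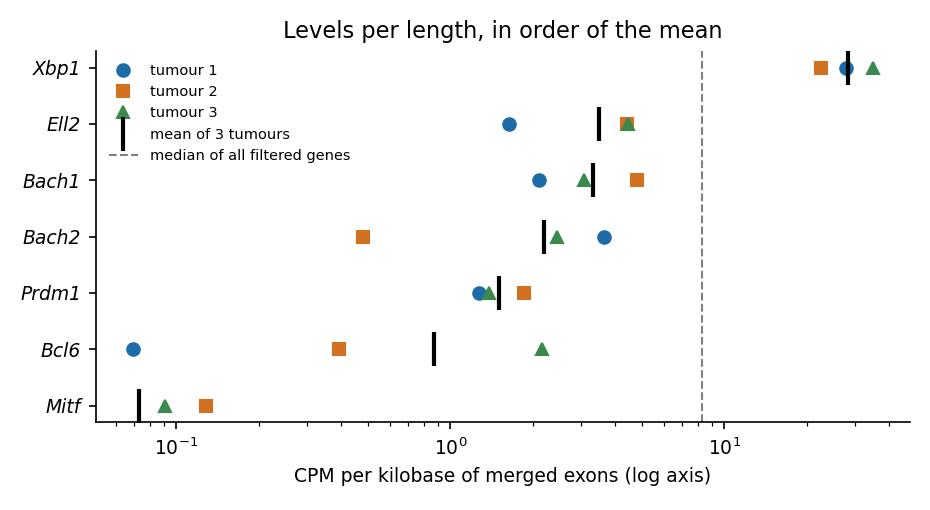
CPM per kilobase of merged exons (log axis) for the 7 genes, ordered by their mean; symbols are the 3 tumours, the black tick is their mean and the dashed line is the median of 11273 filtered genes (8.26). Mitf in tumour 1 was 0 and is not drawn. The points of Bcl6 and Bach2 cross those of Prdm1, while Xbp1 stays to the right of all others.

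The RNA ratios of the repressors Bcl6 and Bach2 to Prdm1 differed by lymphoma. Prdm1 is floxed and its count does not separate deleted from remaining exons, so these need not be ratios to intact Prdm1 mRNA. Per kilobase, Bcl6 was 18.4-fold below Prdm1 in tumour 1, 4.72-fold below in tumour 2 and 1.56-fold above in tumour 3 (mean log2 ratio -1.93 ± 2.44, SD, n = 3). Bach2 was 2.86-fold above Prdm1 in tumour 1, 3.86-fold below in tumour 2 and 1.78-fold above in tumour 3 (0.13 ± 1.83). Without tumour 1, 2 or 3 the mean log2 ratio was -0.56, 1.17 or -0.22 for Bach2, so its sign rests on single libraries, and -0.80, -1.78 or -3.22 for Bcl6. In tumour 2, therefore, both repressors were below Prdm1, in tumour 3 both were above it, and in tumour 1 they were split. Pax5, the B cell identity factor that Blimp1 represses, was above Prdm1 by 111-fold, 81.3-fold and 78.4-fold (6.48 ± 0.28), a far narrower range.

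Of the 5 switch genes that passed the filter, 3 (Bach2, Bach1 and Ell2) differed 2-fold or more between their highest and lowest tumour, against 34.1% of all 11273 filtered genes. Bcl6 and Mitf did not pass the filter and also exceeded 2-fold, so 5 of 7 did. Among genes at a mean of 1 CPM or more, a setting chosen after the data were seen, it was 4 of 6 switch genes and 41.3% of 12445 genes. By pair, 3 of the 5 differed 2-fold between tumours 1 and 2 (18.9% of all genes), 1 of 5 between tumours 1 and 3 (21.5%) and 1 of 5 between tumours 2 and 3 (16.6%). The SD of log2 CPM was 2.32 for Bcl6, 1.57 for Mitf, 1.53 for Bach2, 0.82 for Ell2, 0.59 for Bach1, 0.31 for Xbp1 and 0.28 for Prdm1, around a median of 0.39 over the filtered genes. Bcl6 and Bach2 lay above 98.8% and 95.6% of those genes, and Prdm1 and Xbp1 above 32.2% and 37.5%. Bcl6 did not pass the filter, which leaves out genes with few counts in any library, so its rank is not among genes like it.

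**Figure D3:**
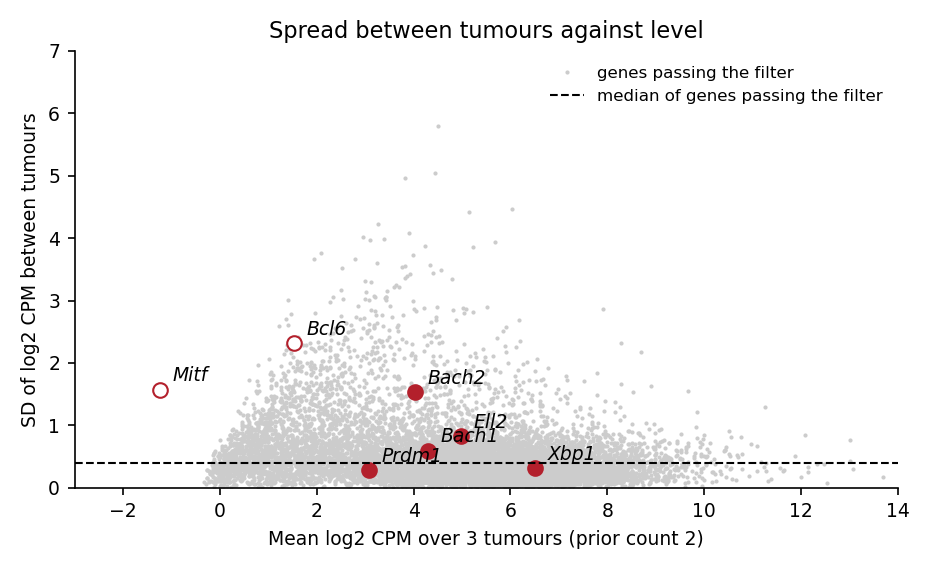
SD of log2 CPM between the 3 tumours against mean log2 CPM, for 11273 filtered genes (grey) and the 7 switch genes (red, with open circles for Bcl6 and Mitf, which did not pass the filter). Bcl6 (2.32) and Bach2 (1.53) lie high, while Prdm1 (0.28) and Xbp1 (0.31) lie below the dashed median of 0.39.

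Genes that Blimp1 is known to repress were mostly abundant. Of the 8 listed, which include Bcl6 and Bach2, 6 passed the filter and 2 of these, Id3 and Bach2, reached a 2-fold range (34.1% of all genes). The median of the list was 73.7 CPM, against 36.4 CPM for all filtered genes. Per kilobase the leading members were Spib (426 ± 34.3 CPM per kilobase), Myc (289) and Pax5 (134), and Spib, an ETS factor of B cells, ranged over only 1.15-fold. Id3, an inhibitor of E proteins, was at 56.1, 62.4 and 20.7 CPM.

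Of the 8 B cell factors around the switch, all 8 exceeded 10 CPM in each library and 2, Irf8 and Ebf1, reached a 2-fold range (34.1% of all filtered genes). Irf8, an interferon regulatory factor of germinal centre cells, had the widest range and, like Bach2, was lowest in tumour 2 (465, 79.0 and 221 CPM). Irf4, which drives the plasma cell side at high levels, was at 392, 297 and 233 CPM, and Pou2af1, the coactivator OBF1, at 567, 618 and 663 CPM.

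Plasma cell genes covered a wide range of levels. Of 12, 9 passed the filter and 6 of these reached a 2-fold range (34.1% of all filtered genes), with a list median of 42.4 CPM. Among genes of surface proteins, Sdc1 (CD138) had 3, 7 and 9 counts, Tnfrsf17 (BCMA) 3, 0 and 0 and Cav1 0, 0 and 1, while Slamf7, a SLAM family receptor, was at 71.0, 25.2 and 75.1 CPM and Tnfrsf13b, the TACI receptor, at 238, 486 and 395 CPM. Sdc1, Tnfrsf17 and Slamf7 were named after their values were seen. Per kilobase the leading genes were Tnfrsf13b (132 CPM per kilobase), and the endoplasmic reticulum genes Mzb1 (93.8) and Txndc5 (64.2). Derl3, a factor of protein disposal, had the widest range, at 130, 31.0 and 6.14 CPM, and Txndc5 least, at 308, 231 and 326 CPM.

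All 16 XBP1 target genes of the secretory pathway passed the filter, with a median of 177 CPM, and 4 reached a 2-fold range (34.1% of all filtered genes). Pdia4 (336 CPM per kilobase), Hspa5, the chaperone BiP (274), and Herpud1 (108) led. Xbp1 was highest in tumour 3, where 5 of the 16 were highest and 9 were lowest. Herpud1, which acts in protein disposal, was at 501, 148 and 104 CPM, and the co-chaperone Dnajc3 at 83.0, 81.3 and 84.9 CPM. Of the 6 sensor and splicing genes, 5 passed the filter and 2, Ern1 and Rtcb, reached a 2-fold range, near the 34.1% of all filtered genes. Rtcb, the ligase that joins the cut Xbp1 mRNA, was at 297, 317 and 151 CPM. Ern1, which encodes IRE1, was at 16.6, 85.5 and 28.5 CPM, so that its highest level was in the tumour of lowest Xbp1, and Ern2 had no count. The sensor genes Atf6 and Atf6b were at 106, 189 and 140 CPM and at 207, 191 and 128 CPM, and Eif2ak3, which encodes PERK, had the narrowest range (48.6, 60.1 and 47.9 CPM).

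**Figure D4:**
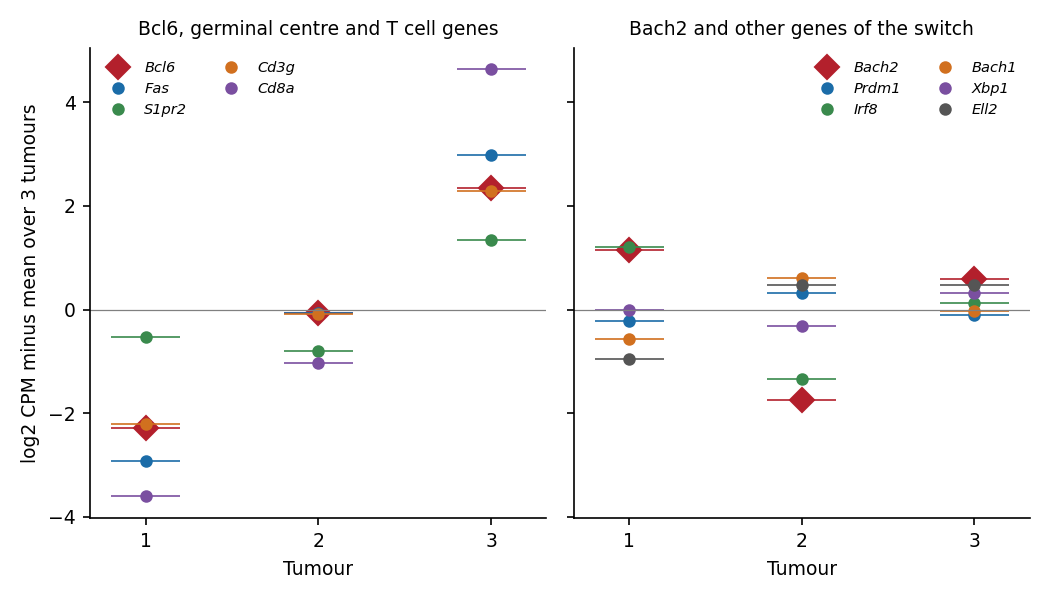
Log2 CPM (prior count 2) minus the mean over the 3 tumours for Bcl6 with germinal centre and T cell genes (left) and for Bach2 with other genes of the switch (right); each point is 1 library, the diamond marks the gene in the title and the short horizontal lines only guide the eye. Bcl6 and Cd3g have nearly the same values in each tumour, Cd8a ranges more widely, and Irf8 is lowest in tumour 2 as Bach2 is. The companions of Bcl6 and Irf8 were picked after their values were seen.

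Partners of BCL6 varied less than Bcl6 itself. The 7 corepressors and partners each reached 10 CPM in all 3 libraries, and 0 of 7 had a 2-fold range, against 34.1% of all filtered genes. Ctbp1 (53.2 CPM per kilobase), Ncor1 (34.3) and the deacetylase Hdac3 (30.7) led, with Hdac3 at 181, 94.6 and 97.7 CPM and the corepressor Bcor at 117, 130 and 127 CPM. Ncor1 was at 311, 426 and 582 CPM, and so had its highest value in the tumour with most Bcl6.

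Of the 5 partners and regulators of the BACH factors, all passed the filter and 2 reached a 2-fold range, near the 34.1% of all filtered genes. The small MAF genes Mafk and Mafg were at 97.0, 109 and 48.6 CPM and at 62.0, 114 and 89.6 CPM, Maff at 27.1, 23.2 and 6.14 CPM, and Nfe2l2, which encodes the opposing activator NRF2, at 97.4, 76.5 and 94.6 CPM. Of 8 haem and redox genes that BACH factors repress, 6 passed and 3 reached a 2-fold range (34.1% of all filtered genes), with 4 of 8 highest in tumour 2, 3 in tumour 3 and 1 in tumour 1 (Bach2 was lowest and Bach1 highest in tumour 2). Hmox1, haem oxygenase, was at 19.2, 31.4 and 9.47 CPM, Ftl1, the ferritin light chain, at 42.1, 80.5 and 40.1 CPM, and Txnrd1 at 141, 199.8 and 133 CPM. Slc7a11, a cystine transporter named after its values were seen, had 3, 105 and 1 counts. Fth1, the ferritin heavy chain, was highest in tumour 1 (1224, 954 and 466 CPM). Gclc and Gclm, the subunits of the enzyme that starts glutathione synthesis, were lowest in tumour 2 (83.2, 70.9 and 128 CPM and 25.9, 21.1 and 35.3 CPM), and Nqo1, a quinone reductase, had 5, 8 and 24 counts. Gclm and Nqo1 complete the list. Hmox1 and the ferritin genes are high in macrophages, whose markers were also highest in tumour 2, and their part was not tested.

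Partners of ELL2 in the elongation complex were all detected (11 of 11 passed), and 6 reached a 2-fold range (34.1% of all filtered genes). Aff1, a scaffold (31.4 CPM per kilobase), Mllt1 (23.1) and the kinase Cdk9 (20.9) led. Cdk9 (60.4, 101 and 127 CPM) and the scaffold Aff4, added after its values were seen (44.3, 122 and 152 CPM), were lowest in tumour 1, as Ell2 was, but only 3 of the 11 were, against 3 lowest in tumour 2 and 5 in tumour 3. Eaf2, an ELL-associated factor, had the widest range among members at 5 CPM or more (10.7, 18.7 and 5.19 CPM), and Eaf1 the narrowest (88.6, 91.3 and 84.3 CPM). The paralogs Ell and Ell3 were at 39.0, 36.6 and 43.1 CPM and at 0.994, 2.02 and 3.10 CPM.

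For each switch gene, the genes nearest in centred log2 CPM over the 3 libraries were listed among those at a mean of 10 CPM or more. With 3 points such nearness is common for genes of ordinary spread: 618 of 8319 genes lay within a distance of 0.25 of Prdm1 and 646 of 8318 of Xbp1. Nearest to Prdm1 were Shfl, Fastkd2 and Mettl5, and nearest to Xbp1 were Rad51c, Myo9b and Stk24. For Bcl6 only 3 genes lay within 0.25, Rab11fip4 (distance 0.0928; 4.51, 23.4 and 114 CPM), the T cell gene Cd3g (0.110) and Glipr2 (0.223). For Bach2 there were 6, led by Nt5e (0.122; 38.8, 5.27 and 29.5 CPM), which encodes CD73, then Leprotl1 (0.148) and Enpp1 (0.165). The nearest to Bach1 were Amer1, Stambpl1 and Acacb, to Ell2 Crybg1, Maml2 and Myef2, and to Mitf Fcer2a, Slc25a13 and Rufy3.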

How the data were processed

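RNA was measured in 3 libraries of sorted lymphoma cells by sequencing of polyA RNA. The authors deposited unnormalised gene counts, and the submitters' processing notes name FastQC, STAR 2.5.2b, featureCounts 1.6.0 and mm10. For the counting step, no annotation release or strand setting is stated in the labels, so reads of antisense partners may be mixed in. Each table held 37646 genes and no row without a gene, and 37536 identifiers matched GENCODE M21 (GRCm38, the assembly of mm10), which gave coordinates and merged exon lengths. Promoter windows were taken from RefSeq (GRCm38.p6) for all 7 genes, 10 windows in all.

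Counts were scaled with TMM factors (0.969, 0.990 and 1.04) after filterByExpr in edgeR 4.0.16 (R 4.3.3), which 11273 genes passed. Log2 CPM used a prior count of 2. Poisson intervals are exact, and ratio intervals are exact conditional binomial, both at 95%. The self-test on simulated counts used the same scaling and fold rule. Intervals came from SciPy 1.17.1, tables from pandas 2.3.3 and NumPy 2.4.6 under Python 3.11.15, and plots from matplotlib 3.10.9. At these depths 3 counts are 0.199, 0.184 and 0.169 CPM.

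The labels give 1 group, numbered in accession order, so no contrast was fitted, and the normal germinal centre controls of the design are not analysed here. The switch genes, lists and rules were chosen with earlier results of these data known. Named were all 7 genes, the 3 members of each list highest per kilobase, members under 3 counts in every tumour, those of widest and narrowest range at 5 CPM or more, the 3 nearest genes by pattern (leaving out predicted, ribosomal protein, mitochondrial and immunoglobulin genes) and overlapping genes, and others are marked as chosen later or follow from the gene's role. The 6 motifs were chosen after the windows were seen. One gene counted in the lists is not reported here. Alternatives covered DESeq2 1.42.0 size factors, total counts, prior counts, folds, filters, transcript length and leaving out each tumour.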

Additional observations from a re-analysis of the deposited data

How the results depend on the processing

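Of 107 alternatives, 97 left a value within the spread between tumours (levels and ratios), or within 1.5 times its reported size (spreads and counts). The other 10 concerned spread and counts, and within the spread the mean log2 ratio of Bach2 to Prdm1 changed sign, from -0.56 to 1.17 on leaving out a tumour. For levels and ratios, leaving out 1 of 3 tumours cannot move a mean by as much as the SD of the 3. Such alternatives were bound to count among the 97, which is therefore no measure of stability for them. Without tumour 3 the Bcl6 mean was 1.55 CPM, against 5.86 CPM with it. The SD of log2 CPM of Mitf, reported as 1.57, was 2.62 with a prior count of 0.5 and 0.99 with one of 5. With the prior count of 0.5 it exceeded that of Bcl6 (2.44). The number of switch genes with a 2-fold range, reported as 5, was 3 at a fold of 4. Leaving out each tumour in turn gave 2 to 5 such genes, and the SD of log2 CPM ranged from 0.085 to 0.38 for Prdm1, from 0.40 to 2.04 for Bach2, from 0.38 to 0.84 for Bach1, from 0.011 to 1.02 for Ell2 and from 0.30 to 2.06 for Mitf; the lowest values came without tumour 2 for Prdm1, Bach2 and Bach1 and without tumour 1 for Ell2 and Mitf. Fewer samples enter each of these. The order per length was the same with the longest transcript for all 7 genes. No paired analysis was possible because the labels give 1 group. Depth limits Mitf in all tumours and Bcl6 in tumour 1, which had 7 counts.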

Other observations

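Among 7 other PRDM genes and Bcl6b, Prdm2 (29.7 CPM per kilobase), Prdm4 (12.5) and Prdm15 (2.95) led. Prdm11 was at 2.52, 1.47 and 14.5 CPM, Prdm10 had the narrowest range (27.4, 21.9 and 32.2 CPM), and Bcl6b, a close relative of Bcl6 named after its values were seen, at 9.41, 0.613 and 3.44 CPM, highest in the tumour with least Bcl6. In the MITF family, Tfeb (122, 121 and 94.8 CPM) and Tfe3 (79.9, 60.1 and 92.3 CPM), lysosomal regulators, were abundant in every tumour, while Tfec had 0, 5 and 0 counts and Mitf at most 13.

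The coding neighbours of Bcl6 and Bach2 within 1000000 bases, at a mean of 5 CPM or more, did not show the pattern of these genes by their medians, a look that was added after the data were seen. For Bach2, 7 neighbours had median centred log2 CPM of 0.08, 0.08 and -0.23 in tumours 1, 2 and 3, against 1.15, -1.74 and 0.59 for Bach2, and 1 of them reached a 2-fold range. For Bcl6, 5 neighbours had 0.17, -0.07 and 0.10, against -2.29, -0.06 and 2.35, and 2 of them reached it. Around Prdm1, 6 of 9 neighbours reached a 2-fold range, against 34.1% of all filtered genes, with medians of 0.24, 0.43 and -0.58, while Prdm1 itself was at -0.22, 0.32 and -0.10. Crybg1, 1 of these neighbours (30.6, 83.1 and 83.0 CPM), was also the gene nearest to Ell2 in pattern, on another chromosome.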
